A study of Homo sapiens with 6 samples.

Results

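Described here are 10 genes for 4 abundant short noncoding RNAs and 6 of the proteins that bind them. The members are RN7SK (7SK RNA), RN7SL1 and RN7SL2 (7SL RNA), RPPH1 (RNase P RNA), and the protein genes LARP7, MEPCE, HEXIM1, SRP9, SRP14 and SSB. They were taken by symbol from 25545 genes with TPM values (reads per gene scaled by gene length and by library, summing to 1000000 per library). The RNAs were selected on their TPM, of which they hold the most, so their levels are given as a description without a test. The selection rule did not use the comparison between the groups, although earlier results of these data were known. The cells were BT-549, a long-established human line of triple-negative breast cancer (TNBC). RNA was sequenced from 3 CsiRNA libraries (cells transfected with a control siRNA) and 3 NEAT1siRNA libraries (cells transfected with an siRNA against the long noncoding RNA NEAT1), each 48 h after transfection. The comparison asks how gene expression differs when NEAT1 is silenced. The labels carry the prefix BT-549/tet, name 1 treatment time and 1 line, and do not say whether the triplicate cultures were independent experiments, so p-values measure the spread between these libraries.

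7SK and 7SL RNA and the RNase P RNA are made by RNA polymerase III and carry no poly(A) tail. The libraries were made with a kit that selects poly(A) RNA. Values of these RNAs are therefore what remained after that selection, and how they follow the levels in the cells was not tested. 7SK RNA is the scaffold of a nuclear particle that holds the elongation kinase P-TEFb inactive. In that particle MEPCE caps the 5′ end of the RNA, LARP7 holds its 3′ end, and HEXIM1 binds the RNA and blocks the kinase CDK9. 7SL RNA is the backbone of the signal recognition particle (SRP), which pauses ribosomes and carries them to the endoplasmic reticulum, and the SRP9 and SRP14 heterodimer binds its Alu domain. RPPH1 is the catalytic RNA of RNase P, which trims the 5′ leader of tRNA precursors. SSB, the La protein, binds the uridine tract at the end of newly made RNA polymerase III transcripts.

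Positions are those of RefSeq (GRCh38.p14). RN7SL1 (chr14:49586580-49586878, plus strand) and RN7SL2 (chr14:49862551-49862849, minus strand) are 299 nt each and near-identical, so that most short reads fit either gene. How such reads were counted is not given in the sources used here, and the genes are therefore also given as a sum. RN7SL1 lies opposite RPS29, which is on the minus strand, and RN7SL2 and RPPH1 (chr14:20343071-20343411, minus strand) each overlap an unnamed lncRNA on the same strand. RN7SK (chr6:52995620-52995951, plus strand) overlaps an entry annotated as 7SK on its own strand. Of the protein genes, LARP7 (chr4:112637143-112657586) lies opposite microRNA genes, MEPCE (chr7:100428790-100434118) opposite ZCWPW1 and over an unnamed gene on its own strand, HEXIM1 (chr17:45148475-45152099) opposite HEXIM2-AS1, and SSB (chr2:169798871-169812064) opposite METTL5, whereas SRP9 (chr1:225777826-225790464) and SRP14 (chr15:40035690-40039202) overlap no other annotated gene. The libraries were stranded, but whether strand was used in counting is not given in the sources used here, so reads of overlapping genes may be shared.

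Sequences were read from GRCh38 and are written 5′ to 3′ on the strand of the RNA, with T for U. The first 110 nt of RN7SK (chr6:52995620-52995729, plus strand) are shown for the motif GATC, each copy of which stands in capitals. It is read as GAUC in the RNA, and some copies, not necessarily all, are known as part of the HEXIM1 binding site.
RN7SK: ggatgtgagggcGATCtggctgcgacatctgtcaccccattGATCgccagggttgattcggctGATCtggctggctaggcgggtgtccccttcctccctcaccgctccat
The motif, which reads the same on both strands, occurs 3 times in this window, starting at positions 13, 42 and 64. Of 247593 annotated transcripts of at least that length, 0.368% hold as many copies in their first 110 nt. This is a description of the letters and says nothing of which copies lie in that site, or of HEXIM1 binding in these cells. The last 30 nt of RN7SK and RPPH1 are shown for the tract that SSB and LARP7 are known to bind, with the closing run of T in capitals.
RN7SK: gcgctgcatgtggcagtctgcctttcTTTT
RPPH1: cccaattcagactactctcctccgcccaTT
These lie at chr6:52995922-52995951 and chr14:20343071-20343100. RN7SK (332 nt) closes with 4 T, whereas RPPH1 (341 nt) closes with 2 T. In the genome a further 3 T follow the annotated end of RPPH1, and none follows that of RN7SK.

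NEAT1 had 13.4, 7.68 and 10.8 TPM in the CsiRNA libraries against 4.36, 2.96 and 2.73 TPM in those with NEAT1siRNA, a log2 fold change of -1.41 (SE 0.14, limma adjusted p = 1.21e-07). Log2 fold changes here and below are on log2(TPM + 1), which makes them smaller for genes of few TPM. With a pseudocount of 0.1 that of NEAT1 was -1.63. ESR1 was at 0 and PGR at up to 0.0068 TPM, while ERBB2 was at 5.76 to 6.36 TPM and VIM at 859 to 1112 TPM. The epithelial genes EPCAM and CDH1 stayed under 0.17 TPM, and the leukocyte gene PTPRC and the endothelial gene PECAM1 under 0.058 TPM. Reads recovered from the tables ran from 15787040 to 20343890 per library. As chi-square per degree of freedom on those reads, replicates differed by 4.78 to 15.3, where counting error alone gives about 1, most between NEAT1siRNA replicates 1 and 2. Those libraries also lay farthest apart by GC content, with a Spearman rho of 0.47 and -0.53 between a gene's deviation and its GC content across 10423 genes, which are not independent replicates.

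The 4 RNAs held 64.4%, 65.6% and 67.7% of the TPM in CsiRNA replicates 1, 2 and 3, and 66.9%, 64.9% and 68.1% in NEAT1siRNA replicates 1, 2 and 3. All 6 libraries lay within a narrow range, and the groups overlapped. The means were 65.9% ± 1.67 and 66.6% ± 1.61 (SD, n = 3 each), a difference of 0.759 percentage points (exact two-sided permutation p = 0.7, where 3 libraries against 3 cannot go below p = 0.1). RN7SK took the largest part, at 31.5% to 42.7% of TPM. Next came RN7SL2 with 12.9% to 17.5%, RN7SL1 with 9.32% to 13.4%, and RPPH1 with 2.55% to 3.30%. By mean TPM they rank 1, 2, 3 and 4 of all genes, RN7SL2 above RN7SL1 in each library, and RN7SL3, another 7SL gene, is next at rank 5. The other genes share what is left, so that scaling them to the same total without the 4 RNAs raises them 2.81 to 3.13 times, depending on the library.

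**Figure D1:**
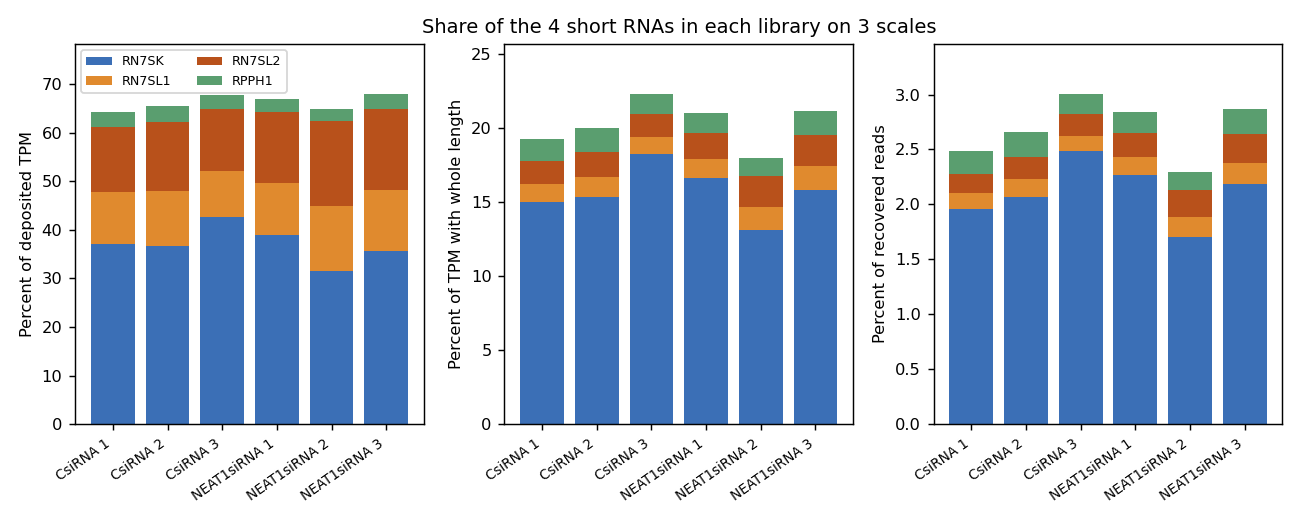
Stacked bars give the percent held by RN7SK, RN7SL1, RN7SL2 and RPPH1 in each library (x axis) as deposited TPM, as TPM with the whole annotated length, and as recovered reads (y axes in percent, each with its own range from 0). The stack reaches 64.4% to 68.1% of deposited TPM, 18.0% to 22.3% with the whole length and 2.30% to 3.01% of reads, and RN7SK is the largest part on each scale.

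In recovered reads the same RNAs held 2.48%, 2.66% and 3.01% of the CsiRNA libraries and 2.84%, 2.30% and 2.87% of the NEAT1siRNA libraries. Here the groups overlapped as well (exact permutation p = 0.9). RN7SK remained at rank 1 with a mean of 384761 reads, but RN7SL2 fell to rank 17 (39384 reads), RPPH1 to rank 21 (36125 reads) and RN7SL1 to rank 31 (29935 reads). The ratio of reads to TPM gives the length by which the reads of a gene were divided. A line was fitted to that effective length in 307 single-exon genes of 400 to 6000 nt, none of them a member. It was then refitted on the genes nearest to it, at last those within 0.5%. The resulting line was the annotated length minus 287.5 nt. Of the 307 genes, 66.8% lay within 5% of this line and 38.8% within 0.5%. The short RNAs fell on the same line. RN7SK of 332 nt was divided by 44.5 nt, RPPH1 of 341 nt by 53.5 nt, and RN7SL1 and RN7SL2 of 299 nt by 11.4 nt each. A read of RN7SL2 therefore counted for several times as much TPM as a read of RN7SK, although RN7SK is only somewhat longer. With the whole annotated length in place of the effective length, the 4 RNAs held 19.3% to 22.3% of TPM with CsiRNA and 18.0% to 21.2% with NEAT1siRNA. On that scale RN7SK kept rank 1, RN7SL2 rank 2 and RPPH1 rank 4, with RN7SL1 at rank 5. The tool that made the TPM is not given in the sources used here.

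**Figure D2:**
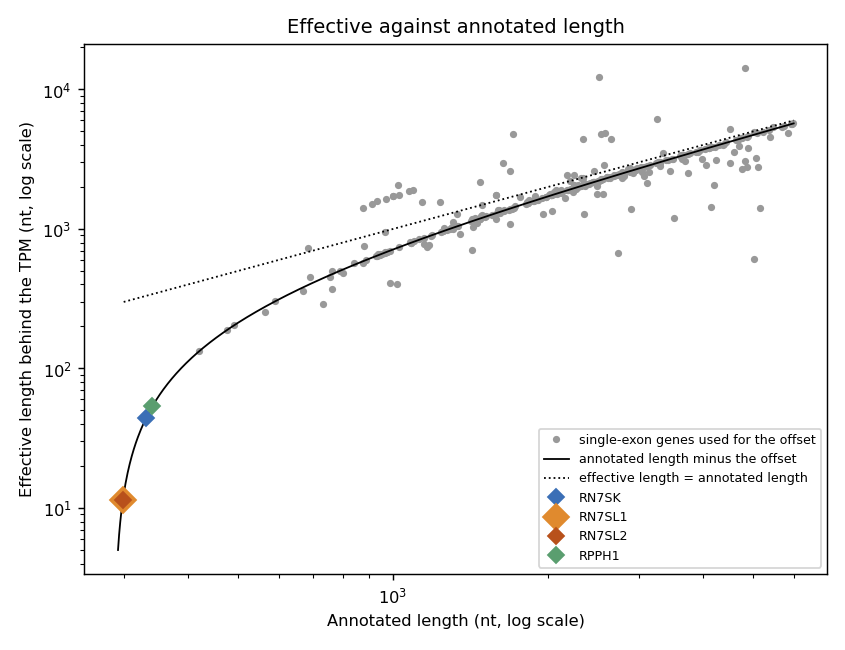
Effective length behind the TPM (y axis, nt, log scale) against annotated length (x axis, nt, log scale) for 307 single-exon genes (grey) and the 4 RNAs (diamonds, RN7SL1 drawn larger beneath RN7SL2). The solid line is the annotated length minus 287.5 nt, and the RNAs sit on its steep end, at 11.4 to 53.5 nt.

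Of 861 genes that the comparison table lists without TPM, 854 have a RefSeq length, and 845 of these are shorter than 287.5 nt. Among them is RMRP, the RNA of RNase MRP and a relative of RPPH1, at 270 nt. The authors' mean normalized count of RMRP was 91517, rank 5 of 19392 genes and 2.53 times that of RPPH1, at 36236. The same column gives 383024 for RN7SK, 39384 for RN7SL2 and 29964 for RN7SL1. RMRP thus has the second highest mean normalized count among the 5, without a value per library.

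Of the 10 members, 2 passed the test between the groups, RN7SL1 and RN7SL2, and both were higher with NEAT1siRNA. The test was limma's moderated test on log2(TPM + 1) over 10721 genes whose TPM averaged 1 or more, as did all 10 members, at a Benjamini-Hochberg adjusted p under 0.05. Over all genes 14.0% were called, 4.99% higher (535) and 8.98% lower (963), so 2 calls among 10 genes are close to the background and, coming from near-identical genes, are not independent. In 3 members (RN7SL2, SRP9 and SRP14) the groups did not overlap, against 30.3% of all genes. The split of calls moved with the scaling, with 1082 higher and 1109 lower after quantile normalization, 1158 and 954 after centring on the median, 1274 and 1199 with voom on recovered reads, 1656 and 1715 with a GC and length trend removed, and 955 and 1096 for TPM with the whole length. Since the 4 RNAs set the scale of all others, the members are also given from TPM rescaled without them. There 3 members were called higher (RN7SL2, SRP9 and SRP14), against 19.6% of all genes, of which 8.58% were higher and 11.0% lower. Fewer cells of a kind and less RNA per cell cannot be told apart in these bulk samples.

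**Figure D3:**
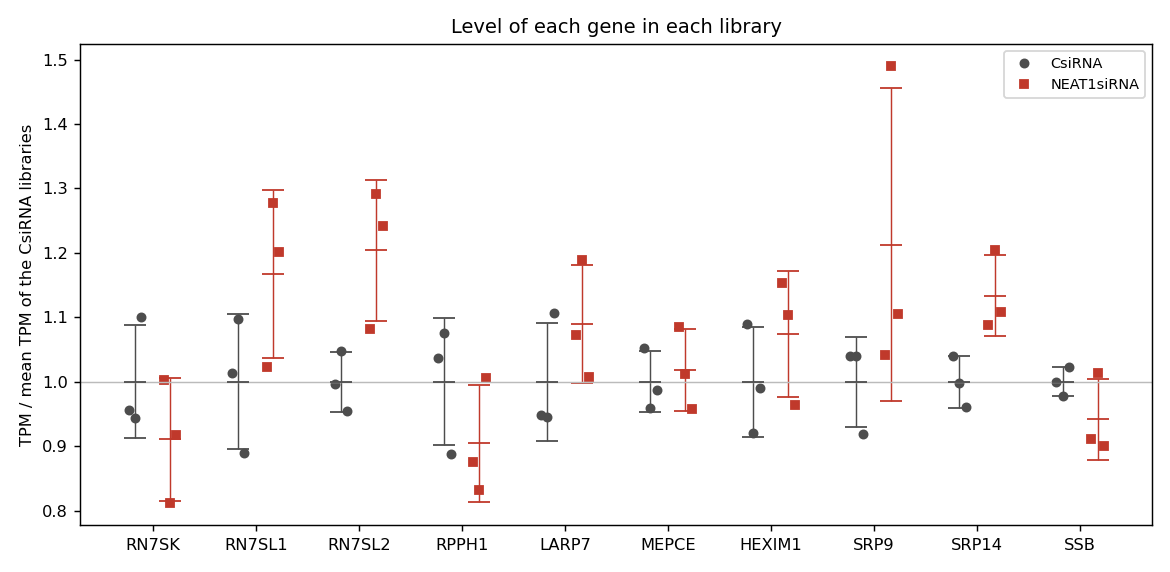
TPM of each member in each library divided by the mean of the CsiRNA libraries (y axis), with CsiRNA as grey circles and NEAT1siRNA as red squares (replicates 1 to 3 from left to right, bars mean ± SD, n = 3). The red squares of RN7SL2, SRP9 and SRP14 all lie above the grey circles, and NEAT1siRNA replicate 2 is the highest of the 6 for RN7SL1, RN7SL2, LARP7, SRP9 and SRP14.

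RN7SL1 and RN7SL2 passed the test as 1.17 and 1.20 times higher with NEAT1siRNA, and both calls were lost without NEAT1siRNA replicate 2. RN7SL3, a 7SL gene with lower TPM, did not pass. RN7SL2 was at 134996, 141754 and 129284 TPM with CsiRNA (replicates 1, 2 and 3 in order here and below), against 146360, 174686 and 167980 TPM with NEAT1siRNA. The NEAT1siRNA values lay above the CsiRNA values, with replicate 1 nearest to them. The fold change was 1.20 (log2 fold change 0.27, SE 0.06, limma adjusted p = 0.00518). RN7SL1 was at 106201, 115007 and 93184 TPM with CsiRNA and at 107190, 133828 and 125912 TPM with NEAT1siRNA. Its groups overlapped, since NEAT1siRNA replicate 1 lay below CsiRNA replicate 2. The fold change was 1.17 (log2 0.22, SE 0.07, limma adjusted p = 0.0467). Added up, both genes gave a log2 fold change of 0.25 (SE 0.06, limma adjusted p = 0.0090). The ratio of RN7SL2 to RN7SL1 ran from 1.23 to 1.39 and overlapped between the groups (exact permutation p = 0.5). RN7SL3 had 10641 ± 1109 TPM with CsiRNA and 10735 ± 915 TPM with NEAT1siRNA (SD, n = 3 each; log2 fold change 0.01, SE 0.08). The difference between RN7SL3 and the other 7SL genes was not tested.

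Both 7SL calls rested on 1 library and on the estimate of the spread. Without NEAT1siRNA replicate 2 the log2 fold change of RN7SL2 was 0.21 (adjusted p = 0.198) and that of RN7SL1 0.15 (adjusted p = 0.371), and without a trend in the variance the adjusted p were 0.0672 and 0.164. RN7SL1 also missed the threshold without CsiRNA replicate 1 (adjusted p = 0.126), without NEAT1siRNA replicate 3 (adjusted p = 0.176) and after rescaling (log2 0.25, adjusted p = 0.0838), where RN7SL2 was still called (log2 0.30, adjusted p = 0.0350). With the GC and length trend removed, the estimates were 0.41 for RN7SL2 (adjusted p = 0.0779) and 0.37 for RN7SL1 (adjusted p = 0.119). In all, RN7SL2 was called in 13 of 18 fits and RN7SL1 in 9 of 19, with estimates above 0 in each.

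The protein partners of the 7SL Alu domain, SRP9 and SRP14, had higher values with NEAT1siRNA but did not pass the test on deposited TPM with all 6 libraries. SRP14 was at 75.4, 72.3 and 69.6 TPM with CsiRNA and at 78.8, 87.3 and 80.2 TPM with NEAT1siRNA. The groups did not overlap, and the distance between them was small (log2 fold change 0.18, SE 0.09, limma adjusted p = 0.188). Rescaled without the 4 RNAs, the log2 fold change was 0.21 (SE 0.05, adjusted p = 0.0175). SRP9 was at 171.7, 171.8 and 151.7 TPM with CsiRNA and at 171.9, 246.0 and 182.5 TPM with NEAT1siRNA. Here NEAT1siRNA replicate 2 stood far above the rest, and NEAT1siRNA replicate 1 was level with CsiRNA replicates 1 and 2. The log2 fold change was 0.26 (SE 0.11, limma adjusted p = 0.103), or 0.29 (SE 0.09, adjusted p = 0.0449) after rescaling. Without NEAT1siRNA replicate 2 the estimate of SRP9 fell to 0.10 (adjusted p = 0.446), and without NEAT1siRNA replicate 1 it was 0.36 and passed (adjusted p = 0.0121). SRP9 transcripts are poor in GC (37.1%) and SRP14 transcripts hold 42.8%, against 62.9% in RN7SL1. With the GC and length trend removed SRP9 stood at 0.22 (adjusted p = 0.0157) and SRP14 at 0.19 (adjusted p = 0.00682). In that fit 3371 of 10423 genes were called. SRP9 and SRP14 were each called in 7 of 20 fits.

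**Figure D4:**
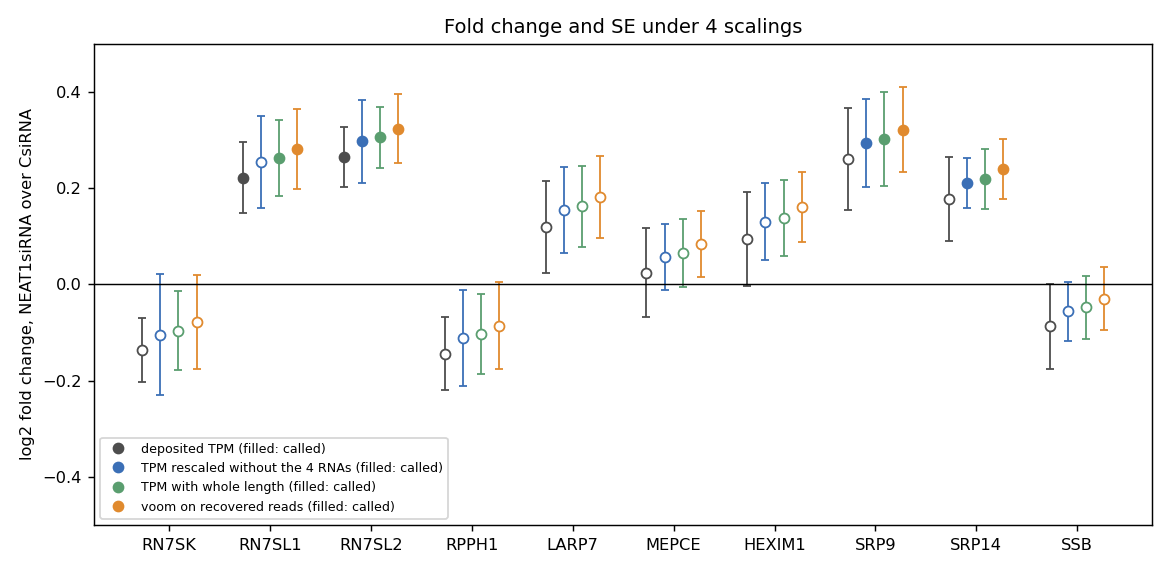
Log2 fold change of NEAT1siRNA over CsiRNA (y axis) with its standard error for each member under 4 scalings, filled where the adjusted p was under 0.05. RN7SL2 is filled under each of them, SRP9 and SRP14 under each but the deposited TPM, RN7SL1 under each but the rescaled TPM, and the other 6 members under none. Of all 10721 genes, 1498 were called on deposited TPM, 2099 on rescaled TPM, 2051 with the whole length and 2473 with voom.

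Other genes of the SRP pathway did not pass on deposited TPM. Of 20 tested genes of the SRP, its receptor and the translocon, RN7SL1 and RN7SL2 were the ones called, 10% of the list against 14.0% of all genes. The median log2 fold change was -0.013, against -0.044 over all genes. SRP54, the GTPase that binds signal peptides, was at 53.0, 54.6 and 49.8 TPM with CsiRNA and at 50.6, 60.3 and 48.5 TPM with NEAT1siRNA (log2 fold change 0.01, SE 0.09). SRP19, SRP68 and SRP72, further proteins of the particle, had log2 fold changes of -0.09, -0.11 and -0.06. SRPRB, of the membrane receptor, had the most negative estimate at -0.22 (SE 0.10, limma adjusted p = 0.138), with overlapping groups. After rescaling, RN7SL2, SRP9 and SRP14 were the 3 that passed, 15% of the list against 19.6% of all genes. Both shares are below those of all genes, so the counts are no result about the list.

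The 7SK RNA retained in these libraries did not differ detectably between the groups. RN7SK was at 370849, 366016 and 427195 TPM in CsiRNA replicates 1, 2 and 3, and at 388899, 315061 and 356086 TPM in NEAT1siRNA replicates 1, 2 and 3. The highest value was a CsiRNA library and the lowest NEAT1siRNA replicate 2, with the other 4 between and mixed. The fold change was 0.910 (log2 -0.14, SE 0.07, limma adjusted p = 0.183), and -0.10 on the log2 scale after rescaling (SE 0.13, adjusted p = 0.598). It was called lower in 2 of 19 fits, without CsiRNA replicate 2 (log2 -0.18, adjusted p = 0.0149) and without NEAT1siRNA replicate 1 (log2 -0.21, adjusted p = 0.00607). The sum of both 7SL RNAs over RN7SK was 0.650, 0.702 and 0.521 with CsiRNA and 0.652, 0.979 and 0.825 with NEAT1siRNA in TPM. These groups overlapped through replicate 1 of NEAT1siRNA (exact permutation p = 0.2, adjusted over 9 ratios 0.45).

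The mRNAs for the proteins of the 7SK particle did not pass the test. LARP7 had 21.2, 21.1 and 24.7 TPM with CsiRNA and 24.0, 26.6 and 22.5 TPM with NEAT1siRNA (log2 fold change 0.12, SE 0.10, limma adjusted p = 0.459). MEPCE had 16.9, 15.5 and 15.9 TPM with CsiRNA and 17.5, 16.3 and 15.4 TPM with NEAT1siRNA (log2 fold change 0.02, SE 0.09, limma adjusted p = 0.899). In each of these genes the groups overlapped. HEXIM1, the inhibitor of P-TEFb, had 12.1, 10.2 and 11.0 TPM with CsiRNA and 12.8, 12.3 and 10.7 TPM with NEAT1siRNA (log2 fold change 0.09, SE 0.10, limma adjusted p = 0.584). Its groups overlapped too. With the GC and length trend removed its log2 fold change of 0.18 passed (adjusted p = 0.0365), as did 3371 of 10423 genes. LARP7 and MEPCE were called in none of 20 fits, in which their lowest adjusted p were 0.140 and 0.352. In recovered reads RN7SK outnumbered them by far, with 384761 against 1289 for LARP7, 1131 for MEPCE and 1208 for HEXIM1.

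Of 25 tested genes of the 7SK particle, P-TEFb and pause factors, 3 passed, each lower with NEAT1siRNA. That is 12% of the list against 14.0% of all genes, and the median log2 fold change was -0.049 against -0.044 over all genes, so the count is no result about the list. ELL2, a subunit of the super elongation complex, was at 72.5, 67.8 and 64.9 TPM with CsiRNA and at 47.2, 57.4 and 48.4 TPM with NEAT1siRNA, so its groups did not overlap (log2 fold change -0.42, SE 0.09, limma adjusted p = 0.00342). DDX21, an RNA helicase that associates with 7SK RNA, fell by 0.38 on the log2 scale (SE 0.09, limma adjusted p = 0.00517). NELFCD, of the negative elongation factor, fell by 0.29 (SE 0.09, limma adjusted p = 0.0376). The call of NELFCD was lost in 4 of the 6 fits that leave out a library (without CsiRNA replicate 1 or 2, adjusted p = 0.213 and 0.128, and without NEAT1siRNA replicate 1 or 3, adjusted p = 0.0583 and 0.169), and that of DDX21 without NEAT1siRNA replicate 3 (adjusted p = 0.0533). The subunits of P-TEFb itself did not pass, with log2 fold changes of -0.12 for CDK9, -0.18 for CCNT1 and -0.28 for CCNT2 (limma adjusted p = 0.455, 0.226 and 0.0799). After rescaling, ELL (lower) and MLLT1 (higher), both of elongation complexes, passed as well, which made 20% of the list against 19.6% of all genes. HEXIM2, ELL3, MLLT3 and BCDIN3D were under the TPM minimum.

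RPPH1 was at 31793, 32985 and 27247 TPM with CsiRNA and at 26876, 25520 and 30877 TPM with NEAT1siRNA. In each group 1 library sat among those of the other, so the groups overlapped. The fold change was 0.905 (log2 -0.14, SE 0.08, limma adjusted p = 0.221), and it was called in 1 of 19 fits, without CsiRNA replicate 3 (log2 -0.23, adjusted p = 0.000254). Set against RPPH1, 7SL RNA did not overlap between the groups, as was so for RN7SL2 alone and for 30.3% of all genes by TPM. The sum of RN7SL1 and RN7SL2 over RPPH1 was 7.59, 7.78 and 8.16 with CsiRNA and 9.43, 12.1 and 9.52 with NEAT1siRNA, a ratio free of library scaling. All NEAT1siRNA values were above all CsiRNA values, at the smallest p that the design allows (exact permutation p = 0.1, adjusted over 9 ratios 0.45). The ratio of RPPH1 to RN7SK overlapped fully (exact permutation p = 1).

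Among 10 tested genes of RNase P and RNase MRP, RPPH1 included, the estimates on deposited TPM were all below 0 (9 of 10 after rescaling). The median log2 fold change was -0.168 against -0.044 over all genes, and the share of all genes below 0 was not counted. Of these 2 passed, or 20% against 14.0% of all genes. POP1, the largest protein subunit of both enzymes, was at 13.3, 12.3 and 11.7 TPM with CsiRNA and at 9.11, 9.09 and 8.24 TPM with NEAT1siRNA. The groups were well apart (log2 fold change -0.45, SE 0.09, limma adjusted p = 0.00170), and POP1 was called in all 20 fits. RPP38, another protein subunit, was at 8.92, 8.21 and 6.69 TPM with CsiRNA and at 6.09, 6.54 and 5.07 TPM with NEAT1siRNA (log2 fold change -0.37, SE 0.11, limma adjusted p = 0.0215). Its groups came close without overlap, and its call was lost without CsiRNA replicate 1 (adjusted p = 0.146) and without NEAT1siRNA replicate 3 (adjusted p = 0.152). After rescaling POP5 passed as well, also lower, which made 30% of the list against 19.6% of all genes. RPP14 and RPP21 were under the TPM minimum.

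SSB was at 61.5, 60.2 and 62.9 TPM with CsiRNA and at 56.1, 62.4 and 55.5 TPM with NEAT1siRNA. NEAT1siRNA replicate 2 fell among the CsiRNA libraries and the other two below them (log2 fold change -0.09, SE 0.09, limma adjusted p = 0.574). It was called in none of 20 fits, with a lowest adjusted p of 0.169. Of 13 tested La-related proteins and other handlers of RNA polymerase III ends, 1 passed, or 7.69% against 14.0% of all genes, with a median log2 fold change of -0.150 against -0.044. This was TOE1, a nuclease that trims the 3′ ends of small nuclear RNAs, at 9.76, 8.85 and 9.09 TPM with CsiRNA and at 7.39, 7.31 and 6.36 TPM with NEAT1siRNA. Its groups did not overlap (log2 fold change -0.35, SE 0.09, limma adjusted p = 0.0128), and the call was lost without CsiRNA replicate 1 (adjusted p = 0.0725) and without NEAT1siRNA replicate 3 (adjusted p = 0.0948).

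The polymerase that makes the 4 RNAs had lower mRNA levels of several subunits in NEAT1siRNA cells. Of 32 tested genes of RNA polymerase III and its factors, 7 passed as lower and 1 as higher, 25% of the list against 14.0% of all genes, and the median log2 fold change was -0.127. POLR3A, the largest catalytic subunit, was at 13.8, 11.9 and 10.9 TPM with CsiRNA and at 7.92, 8.22 and 7.30 TPM with NEAT1siRNA (log2 fold change -0.58, SE 0.10, limma adjusted p = 0.000238). POLR3K, a small subunit with a part in termination, was at 17.01, 15.7 and 14.1 TPM with CsiRNA and at 11.4, 11.0 and 9.97 TPM with NEAT1siRNA (log2 fold change -0.49, SE 0.10, limma adjusted p = 0.00102). Both were called in all 20 fits, and in both the groups lay apart. POLR3E and POLR1C, the latter shared with RNA polymerase I, fell by 0.35 and 0.33 on the log2 scale (limma adjusted p = 0.0161 and 0.0171). Both lost their calls without CsiRNA replicate 1 (adjusted p = 0.0896 and 0.0764) and without NEAT1siRNA replicate 3 (adjusted p = 0.106 and 0.122). SNAPC1 and GTF3C1, factors for promoters of RNA polymerase III, also fell (called in 15 and 17 of 20 fits) and are named after their values were seen.

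POLR3G and POLR3GL, which code for alternative forms of 1 subunit, were called in opposite directions with all 6 libraries. POLR3G was at 31.9, 30.5 and 28.7 TPM with CsiRNA and at 19.9, 26.7 and 22.2 TPM with NEAT1siRNA (log2 fold change -0.40, SE 0.10, limma adjusted p = 0.00872). POLR3GL, named after its values were seen, was at 3.87, 4.33 and 4.26 TPM with CsiRNA and at 5.56, 5.13 and 5.59 TPM with NEAT1siRNA (log2 fold change 0.32, SE 0.09, limma adjusted p = 0.0238). Both calls were lost without CsiRNA replicate 1 (adjusted p = 0.0635 for POLR3G and 0.110 for POLR3GL) and without NEAT1siRNA replicate 1 (0.0548 and 0.0614), and that of POLR3GL also without NEAT1siRNA replicate 3 (0.0911). POLR3G over POLR3GL was 8.25, 7.04 and 6.74 with CsiRNA and 3.57, 5.20 and 3.98 with NEAT1siRNA. The groups did not overlap (exact permutation p = 0.1, adjusted over 9 ratios 0.45), and this ratio was chosen after the values were seen. MAF1, the repressor of RNA polymerase III, had a log2 fold change of 0.09 (SE 0.09, limma adjusted p = 0.568). After rescaling, POLR3B, POLR3D and BDP1 passed as well, each lower, which made 34.4% of the list against 19.6% of all genes. Over all 5 lists together (LARP7 stands in more than 1) 16 of 99 genes passed, 3 higher and 13 lower, which is 16.2% against 14.0% of all genes. That number fell to 6 without CsiRNA replicate 1 or without NEAT1siRNA replicate 3 and rose to 25 without NEAT1siRNA replicate 2.

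**Figure D5:**
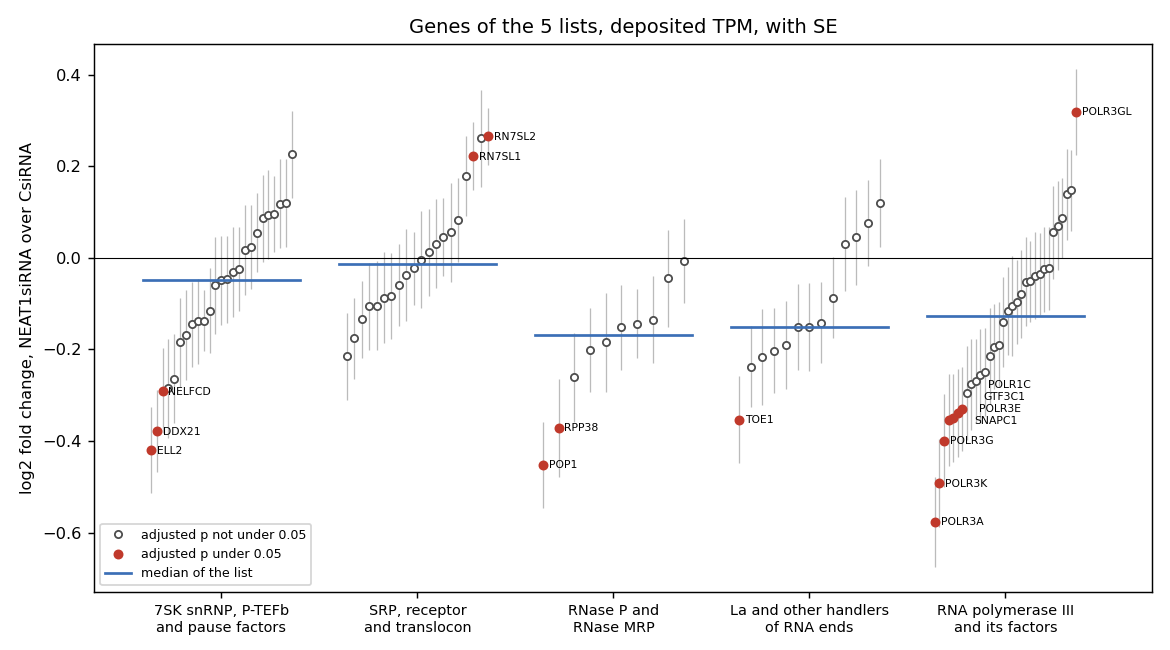
Log2 fold change of NEAT1siRNA over CsiRNA (y axis) with its standard error for each tested gene of the 5 lists (x axis, sorted within a list), filled and named where the adjusted p was under 0.05, with the median of each list as a line. The medians run from -0.168 for RNase P and RNase MRP to -0.013 for the SRP list, and POLR3A is the lowest gene and POLR3GL the highest.

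Other RNAs without a poly(A) tail were followed as sums. Replication-dependent histone genes (74 rows) held between 14133 and 17030 TPM in a library and overlapped between the groups. Small nucleolar and Cajal body RNAs (27 rows, 12 of them above 0) held 3052, 3200 and 2688 TPM with CsiRNA and 2341, 2581 and 2501 TPM with NEAT1siRNA. These sums did not overlap (exact permutation p = 0.1, the smallest that the design allows), as was so for 30.3% of all genes by TPM. Here too, RNAs shorter than the offset of 287.5 nt can have no level, so the sums stand for the longer ones. Of 10 rows of small nuclear RNAs 1 was above 0 in any library, and as these RNAs are shorter than the length offset, the zeros give no level.

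The genes most alike in pattern were found by Pearson correlation over the 6 libraries, among 5056 genes averaging 10 TPM or more, each scaled to the TPM of the genes other than the 4 RNAs. These values are a description with no test. With so few libraries, r above 0.9 was reached by 93 genes for RN7SK, 106 for RN7SL1, 137 for RN7SL2 and 11 for RPPH1. RN7SK ran most like AUNIP (r = 0.997), PPIL2 (0.992) and ERAL1 (0.990). RN7SL1 ran most like HEBP2 (0.985), WARS2 (0.984) and UBE2D3 (0.975), and RN7SL2 most like IFT81 (0.980), RNF7 (0.972) and HMGB1 (0.971). RPPH1 ran most like NME1 (0.999), MRPS33 (0.986) and C1ORF43 (0.981). Among the members themselves r was 0.94 between RN7SL1 and RN7SL2, 0.94 between RN7SL2 and SRP14, and 0.81 between RN7SL2 and SRP9. RN7SL1 gave 0.83 with SRP9 and 0.82 with SRP14. RN7SK gave 0.23 with LARP7, 0.57 with MEPCE, 0.15 with HEXIM1 and -0.74 with SRP9. RPPH1 gave -0.17 with SSB, and not all pairs are given. The libraries share their depth and GC differences. The groups of RN7SL2, SRP9 and SRP14 did not overlap, so r among these members also holds the difference between the groups.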

How the data were processed

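RNA-seq libraries (TruSeq Stranded mRNA, which selects poly(A) RNA) from 3 CsiRNA and 3 NEAT1siRNA cultures were analysed. The authors aligned reads with STAR to GRCh38 and compared groups with DESeq2. The authors deposited TPM per gene and library, and a comparison table whose mean normalized count per gene (a signal scaled by size factors) was used to recover reads. Its fold changes and p-values were not used. Whole reads (to within 0.05) came out for 99.8% of values where that count was under 5 and for 12.6% where it was above 500, so reads of the 4 RNAs are approximate.

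TPM were compared as log2(TPM + 1), for genes averaging 1 TPM or more, with limma 3.58.1 (lmFit, eBayes with trend) in R 4.3.3 and Benjamini-Hochberg adjustment over 10721 genes. Shares and ratios were compared by exact permutation in scipy 1.17.1 (Python 3.11.15). The limma step was tested on simulated data, and the permutation step and the recovery of reads were not. Members and lists were chosen with earlier results of these data known. Named are the members, NEAT1, up to 5 non-members per list that passed with the smallest adjusted p, RMRP, and the 3 genes most correlated with each RNA. Other genes of the lists that are given with values were chosen after those were seen. Symbols were matched to RefSeq (22278 current, 779 older, 2488 unmatched). Alternatives covered the pseudocount, filter, scaling, variance trend, replicate block, each library left out, voom, and a GC and length trend (splines with 4 degrees of freedom). Replicate numbers were not taken to pair the libraries, and the labels do not say whether they do. The sequences of the 7SL genes are not reported here.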

Additional observations from a re-analysis of the deposited data

Results flagged for a closer look

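RMRP, the RNA of RNase MRP, stands out as a signal in data outside the TPM. Its mean normalized count over the 6 libraries was 91517, the fifth highest in the comparison table, and it has no row of TPM, so no value per library and no comparison between the groups is given for it here.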

How the results depend on the processing

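The number of genes called, 1498, became 505 with no filter on TPM, 2473 with voom on recovered reads, 3371 with a GC and length trend removed and 3349 with that and the replicate block, and ran from 759 to 2083 with 1 library left out (759 without CsiRNA replicate 1, 838 without NEAT1siRNA replicate 3). The members called, 2 in the comparison reported, were 1 with a pseudocount of 0.1, 1 with quantile normalization, 1 with both 7SL genes added up, 4 with voom, 4 for TPM with the whole length (a setting added after seeing the data), and 0 to 4 with 1 library left out. With limma's eBayes without trend and with no filter on TPM, 0 were called, where 3 and 1 had an unadjusted p under 0.05, and 0 by either measure without NEAT1siRNA replicate 2. Over the 5 lists, 16 calls became 3 with no filter, 27 with voom, 35 and 33 with the GC and length trend removed without and with the block, and 6 to 25 with 1 library left out. RN7SK turned to 0.015 (log2) with the GC and length trend removed, with or without the block, and MEPCE ran from -0.020 to 0.065 with 1 library left out (-0.020 without NEAT1siRNA replicate 1 and -0.0028 without CsiRNA replicate 2). The difference in the share of TPM, 0.759 percentage points, was -3.76 without the 7SL genes and 4.23 without RN7SK, and ran from 0.0090 to 1.66 with 1 library left out. The causes of these changes were not tested. The replicate block alone gave 1640 calls and the same 2 members, and since same-numbered libraries correlated at -0.03, 0.25 and -0.11, the numbers were not taken to pair the libraries. Quantile normalization gives no value for the 4 RNAs, which hold the top ranks in each library. NEAT1 was called in all 20 fits. Among NEAT1, the members and the named list genes that passed, depth is lowest for POLR3GL, and the TPM themselves keep no depth.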
